A study of Mus musculus with 8 samples.

Results

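The 9 genes described here belong to the lung vasculature and were followed across leukocyte preparations of silica-exposed mice: Emcn, Eng, Vwf, Esam, Sox18, Cdh5, Tmem100, Esm1 and Vegfa. They were taken by gene symbol from the platform's probe annotation, which gave 11 probes for the 9 genes (2 each for Tmem100 and Vegfa), and all 11 had a value on all 8 arrays. They are 9 of the 11597 genes tested. RNA came from lung interstitial leukocytes, released by collagenase and collected on a Percoll density gradient of 40 to 70%, so vessel cells were not the cells the preparation aimed at. The 4 groups of 2 arrays were wild-type C57Bl/6 mice (WT) and Rag1-/- mice, each given either saline or crystalline silica. Mice were 6 to 8 weeks old and were dosed through the nose weekly for 4 weeks with 25 µl of saline, which held 1 mg of silica in the silica groups. The Rag1-/- mice, whose strain background is not given in the sources used here, also received an antibody against NK1.1 (300 µg per injection, before the first dose and weekly) to deplete natural killer cells. They are called RagKO here, and the missing gene and the depletion cannot be told apart. The labels call both arrays of a group biological replicates, the number of mice behind each is not given in the sources used here, and every p-value measures the spread between these arrays.

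Endothelial cells line every vessel and hold the alveolar capillaries closed through junctions built on VE-cadherin, the product of Cdh5. Vessel growth and permeability are driven by the ligand VEGF-A acting on endothelial VEGF receptors, while BMP ligands acting through endoglin and the receptor ALK1 keep vessels quiescent. In the lung VEGF-A is made largely by alveolar epithelium and also by macrophages, so Vegfa belongs here as the signal to the endothelium and not as a marker of it. Vwf and Esam are also expressed by the platelet lineage and Eng by activated macrophages.

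On mouse assembly GRCm38.p6 the junction and surface genes lie at chr8:104101613-104144504 (Cdh5), chr9:37528089-37538319 (Esam) and chr3:137341062-137431069 (Emcn). Vwf lies at chr6:125552948-125686679, Eng at chr2:32646595-32682669, Sox18 at chr2:181669837-181671640 and Tmem100 at chr11:90030348-90036508. Esm1 lies at chr13:113209659-113218104 and Vegfa at chr17:46016993-46032377. RefSeq promoter windows of that build, 250 bases before to 50 after the start site, were matched for 4 of the 9 genes (Emcn, Eng, Esm1 and Vegfa, which has more than 1). The windows of Emcn (chr3:137340828-137341127, plus strand) and Esm1 (chr13:113209409-113209708, plus strand) are shown because both genes rose with silica in WT and fell in RagKO, and that of Eng (chr2:32646345-32646644, plus strand) because this gene was lower in RagKO under both exposures. Capitals mark every match to AGGAAG, a letter string of ETS factor sites, or to ACAAT, one of SOX factor sites, on either strand.
Emcn: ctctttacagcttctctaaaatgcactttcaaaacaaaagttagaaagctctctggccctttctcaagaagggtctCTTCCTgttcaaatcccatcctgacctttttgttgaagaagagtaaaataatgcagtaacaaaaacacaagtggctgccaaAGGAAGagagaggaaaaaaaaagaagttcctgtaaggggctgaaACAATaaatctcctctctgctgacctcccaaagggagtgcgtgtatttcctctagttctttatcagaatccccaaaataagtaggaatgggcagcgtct
Eng: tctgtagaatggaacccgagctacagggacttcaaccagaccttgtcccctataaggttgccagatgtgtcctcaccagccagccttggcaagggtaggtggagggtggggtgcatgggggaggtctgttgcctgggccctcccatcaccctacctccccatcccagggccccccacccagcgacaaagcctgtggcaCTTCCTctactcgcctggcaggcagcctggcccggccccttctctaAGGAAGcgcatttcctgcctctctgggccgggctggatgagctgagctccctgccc
Esm1: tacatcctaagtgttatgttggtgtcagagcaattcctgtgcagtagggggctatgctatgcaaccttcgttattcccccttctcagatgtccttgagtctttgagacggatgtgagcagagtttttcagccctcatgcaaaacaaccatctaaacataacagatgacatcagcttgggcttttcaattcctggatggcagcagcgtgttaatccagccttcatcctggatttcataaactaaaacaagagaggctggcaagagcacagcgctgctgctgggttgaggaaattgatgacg
The Emcn window held AGGAAG at 174 and 93 bases before the start site, given as its first base on the printed strand, and ACAAT at 49 bases before it. The Eng window held AGGAAG at 52 and 6 bases before the start site, and the Esm1 window held neither string. AGGAAG occurred in 35.4% and ACAAT in 31% of all 32851 mouse windows, so such matches are common. A stricter ETS string, CCGGAA, occurred in 14.9% of all windows and in 0 of the 5 windows of these genes. The hypoxia-factor string ACGTG occurred in 19.6% of all windows and in 1 of the 5. That was a Vegfa window inside the gene span given above (chr17:46025114-46025413, minus strand). The Vegfa window that overlaps the upper end of that span (chr17:46032328-46032627, minus strand) held no match. The Emcn and Esm1 windows had 41% and 46.3% G and C against 63.3% in Eng and a median of 52.7% over all windows.

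All values below are log2 ratios of leukocyte RNA over a universal mouse reference RNA, so a value of 0 means the same amount as in the reference and ratios of different genes are not compared. That scale assumes that the table holds log10 ratios, as their range implies. Between 15661 and 16119 of 16251 probes had a value per array, and across probes the lowest r between arrays of 1 group was 0.9778. Across all 4 groups Emcn, Vwf, Esam and Cdh5 stayed between 5.61-fold and 53.8-fold above the reference in their group means. Below it were the means of Eng in RagKO saline (0.913-fold), Esm1 in WT saline (0.903-fold) and Vegfa in WT and RagKO saline (0.95-fold and 0.615-fold). Of other endothelial genes, Cldn5 and Kdr were above it, with group means of 3.99 to 5.39 and of 4.09 to 4.83. Pecam1 (0.93 to 1.91) and Tek (0.90 to 1.65) were also above it. Cd34 was below it in WT (-1.04 with saline and -0.51 with silica) and near it in RagKO (0.20 and 0.02). The sex-linked transcripts Xist and Eif2s3y differed both within and between groups. In the RagKO silica pair Xist was at -2.71 and 2.22 and Eif2s3y at 2.42 and -2.22, so results of that group are also given without each array. A second Xist probe ran the same way in that pair (-1.03 and 1.52). The other groups had Xist levels of -0.24 and -0.21 (WT, saline), 0.82 and 0.48 (WT, silica) and -2.47 and -2.64 (RagKO, saline), and Eif2s3y levels of 2.32 and 2.27, 0.34 and 1.05, and 2.9 and 2.6 in that order. Both transcripts thus moved with silica in WT, and both differed by genotype after saline, without overlap. The sex-linked transcript Kdm5d was at 0.56 and 0.42 in WT saline and at -0.56 and -0.15 in WT silica. In RagKO it was at -0.43 and -0.19 with saline and at -0.22 and -1.02 with silica. After saline Kdm5d was thus lower in RagKO, where Eif2s3y was higher. The second Xist probe overlapped between the WT groups (0.17 and -0.15 against 0.25 and -0.02) and was at -0.71 and -0.81 in RagKO saline. The part of the sex of the mice in the results was not tested. The ribosomal RNA transcript Rn28s1 went with silica from 3.67 and 3.71 to 2.17 and 2.45 on the WT arrays, and from 2.43 and 2.08 to 0.86 and 0.59 on the RagKO arrays. It was lower after silica in both genotypes without overlap, and its part in the results was not tested. Lymphocyte loss was visible in RagKO, where all 8 measured T, NK and B cell markers were lower after saline and after silica. Over all genes 29.2% and 26.4% were lower. The differences after saline ran from -0.49 to -6.70 (Ms4a1). In RagKO saline the NK and cytotoxic genes Gzma (4.42), Nkg7 (3.02) and Klrb1c (1.94) stayed above the reference, while Ms4a1 (-2.13) and Cd5 (-1.51) were among those below it.

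**Figure D1:**
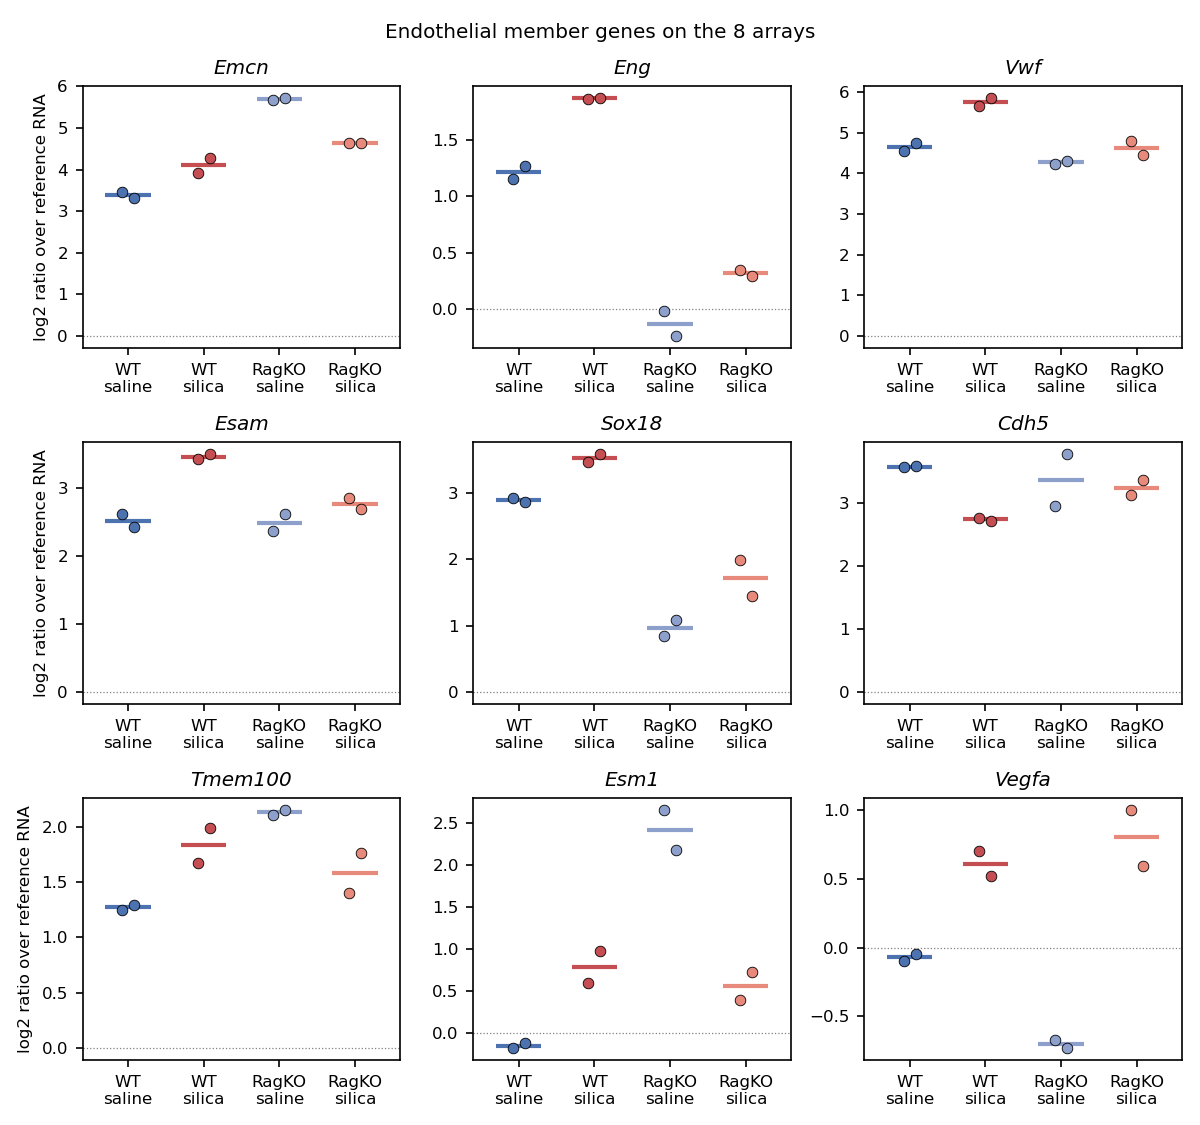
Log2 ratio over the reference RNA (vertical axes, a separate scale per gene) of the 9 genes in the 4 groups; points are single arrays, bars are means of 2 arrays and the dotted line marks a ratio equal to the reference. Emcn and Esm1 are highest in RagKO saline (means 5.69 and 2.41), Eng and Sox18 are lowest there (-0.13 and 0.97), and Cdh5 is lowest in WT silica (2.74).

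The first comparison asked what silica did to these genes in mice with lymphocytes. In WT leukocyte preparations 8 of the 9 genes rose after silica and Cdh5 fell, by limma with Benjamini-Hochberg adjustment over all genes at a threshold of 0.05. Over all genes tested 19.7% passed, 11.5% upward and 8.21% downward. The 9 genes were chosen with earlier results of these data known, so setting their count beside these shares is a description only. The median difference of the 9 genes was 0.68 on the log2 scale, against -0.01 over all genes. These are mixed preparations, so a change in the number of endothelial cells and a change in RNA per cell cannot be told apart. That limit holds for the comparisons below as well.

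Among the junction and surface genes, VE-cadherin went against the rest. Cdh5 measured 3.57 and 3.59 with saline, and 2.76 and 2.71 with silica. Both silica arrays lay below both saline arrays, and the log2 difference was -0.84 (SE 0.21, adjusted p = 0.0215), a 1.8-fold fall. Esam, an adhesion molecule of endothelial tight junctions, measured 2.62 and 2.42 with saline, and 3.42 and 3.50 with silica. It was 1.92-fold higher (0.94, SE 0.13, adjusted p = 0.000979). Emcn, which encodes endomucin, a sialomucin that coats capillary and venous endothelium, measured 3.47 and 3.31 with saline, and 3.92 and 4.27 with silica. Its rise was 0.71 (SE 0.13, adjusted p = 0.00498), with no overlap between the groups. The arrays of the groups did not overlap for any of the 9 genes, which was also so for 67.5% of all genes.

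Vwf, the platelet-tethering glycoprotein stored in endothelial granules, had the largest rise of the 9. It measured 4.54 and 4.74 with saline, and 5.65 and 5.85 with silica. That is a 2.16-fold increase (1.11, SE 0.14, adjusted p = 0.000754), larger in size than the change of 97.9% of genes. Eng, the BMP co-receptor endoglin, measured 1.15 and 1.27 with saline, and 1.86 and 1.87 with silica, a rise of 0.66 (SE 0.12, adjusted p = 0.00376). Sox18, a transcription factor of vascular and lymphatic development, read 2.92 and 2.85 against 3.46 and 3.58 and rose by 0.63 (SE 0.17, adjusted p = 0.0245). Esm1, the secreted proteoglycan endocan that marks sprouting tip cells, measured -0.18 and -0.12 with saline, and 0.59 and 0.97 with silica. It crossed from just under the level of the reference to above it, a rise of 0.93 (SE 0.19, adjusted p = 0.00715). Vegfa moved likewise, from -0.10 and -0.05 to 0.70 and 0.52 (0.68, SE 0.14, adjusted p = 0.00854).

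Tmem100, a membrane protein induced downstream of ALK1 in endothelium, measured 1.25 and 1.29 with saline, and 1.67 and 1.99 with silica as the mean of its probes. The mean rose by 0.56 (SE 0.15, adjusted p = 0.0244). Its probes differed: the probe designed to the RefSeq transcript rose by 0.89 (adjusted p = 0.0113), and the probe designed to a cDNA clone read 0.23 higher (adjusted p = 0.191). Several WT calls depended on having every array. Leaving out any WT array removed the calls of Sox18 and Cdh5 (adjusted p from 0.052 to 0.133 for Sox18 and from 0.06 to 0.0957 for Cdh5), and leaving out WT saline replicate 1, saline replicate 2 or silica replicate 2 removed that of Tmem100 (0.123, 0.109 and 0.164). Emcn was lost without WT saline replicate 2 (0.056), Esm1 without silica replicate 2 (0.0574) and Vegfa without saline replicate 1 (0.0627), so that 5 of the 9 genes passed in each of those 3 fits. Eng, Vwf and Esam passed in every such fit.

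The same question in RagKO mice gave a split. Of the 9 genes 3 rose (Eng, Sox18 and Vegfa), 3 fell (Emcn, Tmem100 and Esm1) and 3 did not pass the test (Vwf, Esam and Cdh5), against 32.7% of all genes that passed, 16.8% upward and 15.9% downward. Their median difference was 0.28, against -0.03 over all genes.

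The falls were the larger departures from WT. Esm1 measured 2.65 and 2.17 with saline, and 0.39 and 0.72 with silica, a 3.61-fold fall (log2 difference -1.85, SE 0.19, adjusted p = 0.000125), larger in size than the change of 99.5% of genes. Emcn read 5.66 and 5.72 with saline and 4.63 on both silica arrays, a 2.09-fold fall (-1.06, SE 0.13, adjusted p = 0.000372). Tmem100 read 2.10 and 2.15 against 1.40 and 1.76 and fell by 0.55 on the log2 scale (SE 0.15, adjusted p = 0.0176). For each of the 3 genes both silica arrays were below both saline arrays. The RefSeq probe of Tmem100 fell by 0.94 (adjusted p = 0.00568), while its other probe, with a difference of -0.16, did not pass (adjusted p = 0.318).

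Vegfa had the largest rise. It measured -0.67 and -0.73 with saline, and 1.00 and 0.59 with silica, a 2.82-fold increase (1.5, SE 0.14, adjusted p = 9.28e-05), and both probes passed, with rises of 1.37 and 1.62. Macrophage and monocyte markers moved with it: 9 of 14 measured rose and 0 fell in RagKO, led by the scavenger receptor gene Marco (2.28) and the complement genes C1qb (1.64) and C1qa (1.52). Their mean log2 ratio was 2.82 and 2.89 after saline and 3.65 and 3.68 after silica. In WT, where Vegfa also rose, 1 of the 14 rose and 2 fell, and the list's mean was 3.16 and 3.13 after saline and 3.28 and 2.96 after silica. The part of macrophages in the Vegfa values was not tested.

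Sox18 measured 0.85 and 1.09 with saline, and 1.98 and 1.45 with silica in RagKO, a rise of 0.75 (SE 0.17, adjusted p = 0.00735). Eng read -0.02 and -0.24 against 0.35 and 0.29, a rise of 0.45 (SE 0.12, adjusted p = 0.0142). Neither pair of groups overlapped. Vwf measured 4.22 and 4.31 with saline, and 4.78 and 4.44 with silica, and its difference of 0.35 (95% interval 0.03 to 0.66) had an adjusted p of 0.0831. Esam read 2.37 and 2.61 against 2.85 and 2.69, a difference of 0.28 (95% interval 0.00 to 0.56, adjusted p = 0.116). Cdh5 was the most scattered, with 2.95 and 3.78 after saline, then 3.13 and 3.36 with silica, and its groups overlapped (-0.12, 95% interval -0.60 to 0.36, adjusted p = 0.695). The groups did not overlap for 8 of the 9 genes, against 67.1% of all genes.

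Without RagKO silica replicate 1, the differences were -1.06 for Emcn, -1.68 for Esm1 and 1.29 for Vegfa, and without replicate 2 they were -1.06, -2.02 and 1.70, all past the threshold. Eng was lost without silica replicate 1 (adjusted p = 0.0647) or saline replicate 2 (0.0711) and Sox18 without saline replicate 1 (0.064). Sox18 was also 0.48 without silica replicate 1. Tmem100 was lost without silica replicate 1 (-0.37, adjusted p = 0.123) or either saline array (0.0667 and 0.0712). Vwf passed without silica replicate 2 (0.52, adjusted p = 0.0324) and with quantile normalization (0.58, 0.0197), and Cdh5 turned from -0.53, past the threshold, without saline replicate 1 to 0.29 without saline replicate 2.

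**Figure D2:**
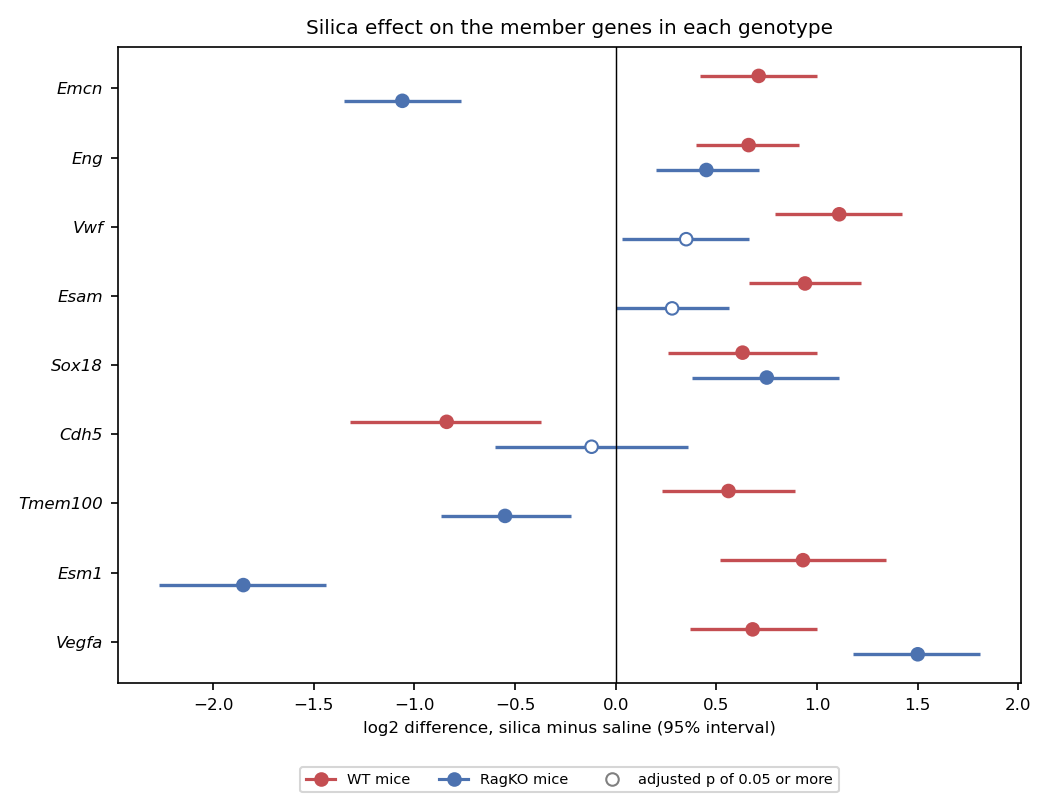
Log2 difference of silica minus saline (horizontal axis) for each gene in WT (red) and RagKO (blue), from 2 arrays per group; lines are 95% intervals of the fit and open circles did not pass the adjusted threshold. Emcn, Tmem100 and Esm1 lie right of 0 in WT (0.71, 0.56 and 0.93) and left of 0 in RagKO (-1.06, -0.55 and -1.85).

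The difference between the silica effects was itself tested as an interaction, the RagKO effect minus the WT effect. It passed for 6 of the 9 genes, 5 with a lower effect in RagKO and 1, Vegfa, with a higher one, against 23.3% of all genes that passed, 12.3% lower and 11% higher. The median was -0.66, against 0.00 over all genes. Esm1 differed most, by -2.78 (SE 0.26, adjusted p = 0.00015), beyond the interaction of 99.8% of genes in size. Emcn differed by -1.77 (SE 0.19, adjusted p = 0.00023) and Tmem100 by -1.11 (SE 0.21, adjusted p = 0.0042). These 3 genes rose in WT and fell in RagKO, for Tmem100 by the mean of its probes. Its interaction was -1.83 (adjusted p = 0.00116) on the RefSeq probe and -0.38 (adjusted p = 0.114) on the cDNA probe, which passed in neither genotype.

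Smaller interactions were found for the remaining 3. Vwf differed by -0.76 (SE 0.20, adjusted p = 0.021) and Esam by -0.66 (SE 0.18, adjusted p = 0.0238), both with a larger rise in WT. Vegfa differed by 0.82 (SE 0.20, adjusted p = 0.0154) as the mean of its probes, and by 1.03 (adjusted p = 0.00342) and 0.60 (adjusted p = 0.0632) on each. Eng, with rises of 0.66 in WT and 0.45 in RagKO, had an interval of -0.57 to 0.16, and Sox18, with 0.63 and 0.75, one of -0.40 to 0.64. The interaction of Cdh5 was 0.72 (95% interval 0.05 to 1.40, adjusted p = 0.114). Esm1, Emcn and Tmem100 passed without each of the 8 arrays in turn. Esam and Vwf each missed the threshold in 4 of those 8 fits, among them the one without RagKO silica replicate 2 (adjusted p = 0.0655 and 0.0585). The others were, for Esam, the fits without WT saline replicate 2 (0.112), WT silica replicate 2 (0.0688) and RagKO saline replicate 2 (0.0663), and for Vwf those without WT saline replicate 1 (0.0924), WT silica replicate 2 (0.0712) and RagKO saline replicate 2 (0.0608). Vegfa missed it without WT saline replicate 2 (0.0578) or WT silica replicate 2 (0.0538), and Cdh5 passed without RagKO saline replicate 2 (1.14, adjusted p = 0.00446). Without WT silica replicate 2, 3 of the 9 genes passed.

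With saline alone, the genotypes already differed in these genes, in opposite directions. This comparison shares its saline arrays with the silica effects given above. The interaction equals the genotype difference after silica minus that after saline, so these results are not independent of each other. In RagKO after saline 3 of the 9 were higher than in WT (Emcn, Tmem100 and Esm1) and 4 were lower (Eng, Vwf, Sox18 and Vegfa), while 66.2% of all genes passed, 37% higher and 29.2% lower. The share of these genes that differed was thus close to that of all genes. Emcn was 4.93-fold higher in RagKO (2.30, SE 0.13, adjusted p = 2.88e-07), and Esm1 5.89-fold higher (2.56, SE 0.19, adjusted p = 1.3e-06). Sox18 was 3.77-fold lower (-1.92, SE 0.17, adjusted p = 3.94e-06) and Eng 2.53-fold lower (-1.34, SE 0.12, adjusted p = 3.81e-06). On these arrays Eng was at the level of the reference in RagKO (-0.02 and -0.24) and above it in WT (1.15 and 1.27).

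Vegfa was lower in RagKO saline by a log2 difference of -0.63 (SE 0.14, adjusted p = 0.0027), and Vwf by -0.37 (SE 0.14, adjusted p = 0.0376). The Vwf call was lost without WT saline replicate 2 (-0.27, adjusted p = 0.224), RagKO saline replicate 1 (-0.33, 0.144) or RagKO saline replicate 2 (-0.42, 0.0705), and with quantile normalization (-0.16, 0.395). Esam (-0.03, 95% interval -0.31 to 0.25) and Cdh5 (-0.22, 95% interval -0.69 to 0.26) did not pass, and Cdh5 passed at -0.63 without RagKO saline replicate 2 (adjusted p = 0.00412) and read 0.19 without replicate 1. The mean of Tmem100 was higher by 0.86 (SE 0.15, adjusted p = 0.000476), but its probes went opposite ways. The RefSeq probe was at 1.47 and 1.5 for WT and at 3.62 and 3.71 for RagKO (2.18, adjusted p = 3.25e-06). The cDNA probe was at 1.04 and 1.07 for WT and at 0.59 and 0.58 for RagKO (-0.47, adjusted p = 0.00353). The genotype direction of Tmem100 therefore rests on which probe is used. The groups did not overlap for 7 of the 9 genes, against 84.9% of all genes.

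After silica 5 of the 9 genes differed between the genotypes. Of these, 4 were lower in RagKO (Eng, Vwf, Esam and Sox18) and Emcn was higher, while 60.1% of all genes passed, 33.7% higher and 26.4% lower, so the share of the 9 was again close to that of all genes. This comparison shares its silica arrays with the silica effects given above. Sox18 was 3.48-fold lower (-1.80, SE 0.17, adjusted p = 1.13e-05), and Eng 2.92-fold lower (-1.54, SE 0.12, adjusted p = 3.01e-06). Vwf was 2.20-fold lower (-1.14, SE 0.14, adjusted p = 7.48e-05) and Esam 1.62-fold lower (-0.70, SE 0.13, adjusted p = 0.000903). With quantile normalization the Vwf difference was -0.73 (adjusted p = 0.00323). For these 4 genes both RagKO arrays were below both WT arrays.

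Emcn was 1.45-fold higher in RagKO after silica (0.53, SE 0.13, adjusted p = 0.00559), and by 0.94 with quantile normalization (adjusted p = 0.000148). Esm1, 5.89-fold higher after saline, differed by -0.22 after silica with an interval of -0.64 to 0.19 (adjusted p = 0.32). Tmem100 (-0.25, 95% interval -0.58 to 0.07), Vegfa (0.19, -0.13 to 0.50) and Cdh5 (0.51, 0.03 to 0.98, adjusted p = 0.0637) did not pass either. Probes again disagreed: the cDNA probe of Tmem100 was lower by -0.85 (adjusted p = 7.33e-05) and its RefSeq probe read 0.35 (0.165), and one Vegfa probe was higher by 0.56 (0.00473) and the other read -0.18 (0.318). Without RagKO silica replicate 2, Tmem100 passed at -0.43 (adjusted p = 0.0442) and Vegfa at 0.39 (0.0367), and Vegfa was -0.02 without RagKO silica replicate 1. Cdh5 passed with quantile normalization (0.73, adjusted p = 0.00977) and in a fit of the 4 silica arrays alone (adjusted p = 0.0113). The RagKO saline arrays do not enter this difference. Leaving out either kept it at 0.51 and changed only the spread that the fit shares between groups. Groups did not overlap for 6 of the 9 genes, against 79.7% of all genes.

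**Figure D3:**
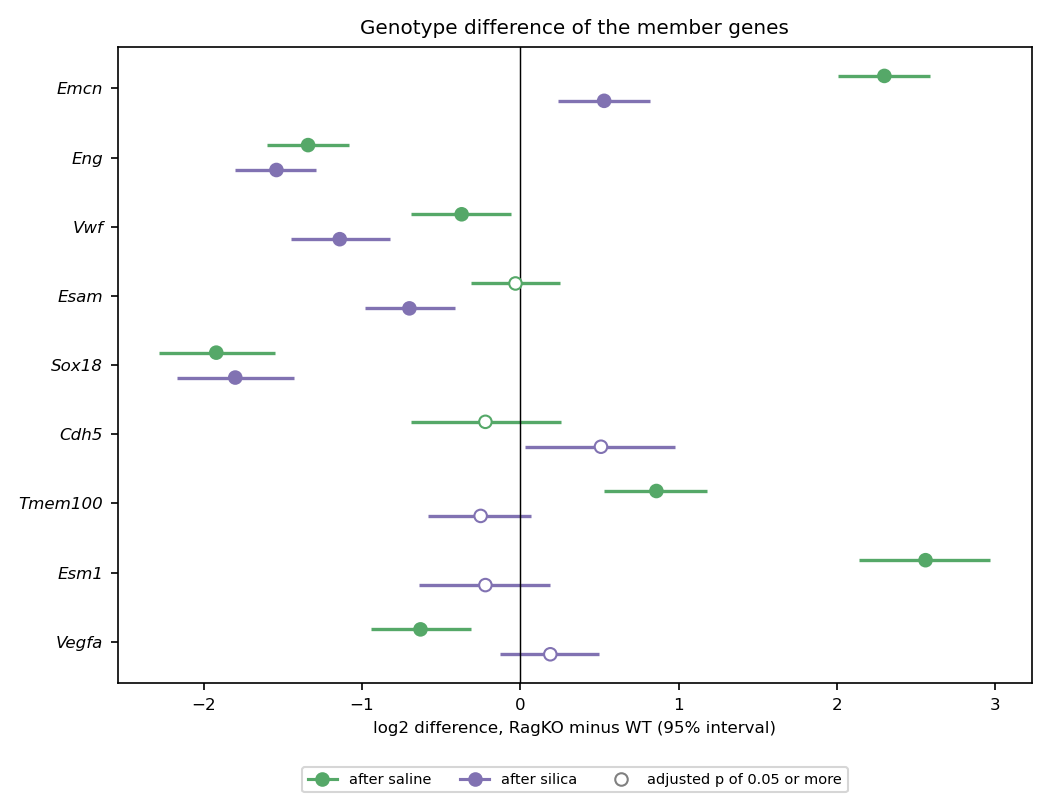
Log2 difference of RagKO minus WT (horizontal axis) for each gene after saline (green) and after silica (purple), from 2 arrays per group; lines are 95% intervals of the fit and open circles did not pass the adjusted threshold. Eng and Sox18 are lower in RagKO under both exposures (-1.34 and -1.54, -1.92 and -1.80), while Emcn and Esm1 are higher after saline (2.30 and 2.56).

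**Figure D4:**
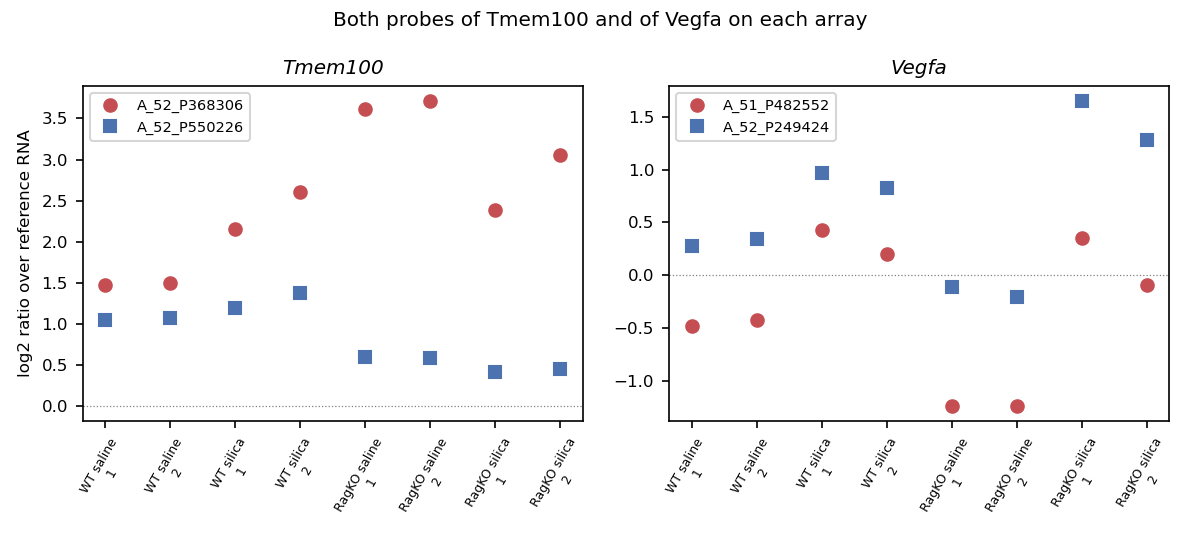
Log2 ratio over the reference RNA (vertical axes) of both probes of Tmem100 and of Vegfa on each of the 8 arrays (horizontal axes); for Tmem100 circles are the RefSeq probe and squares the cDNA probe. From WT saline to RagKO saline the Tmem100 circles go up (1.47 and 1.5 to 3.62 and 3.71) and the squares down (1.04 and 1.07 to 0.59 and 0.58), whereas both Vegfa probes rise after silica in each genotype.

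The order of the group means differed between the genes. Emcn, Esm1 and the probe mean of Tmem100 were highest in RagKO saline, Vwf, Esam, Eng and Sox18 in WT silica, Cdh5 in WT saline and Vegfa in RagKO silica. The cDNA probe of Tmem100 was highest in WT silica (1.19 and 1.38). Of the neighbours in these orders that differ only in genotype or only in exposure, those that did not pass were WT silica and RagKO silica for Esm1, Tmem100 and Vegfa, WT saline and RagKO saline for Esam and Cdh5, RagKO saline and RagKO silica for Cdh5 and Vwf, and RagKO silica and WT silica for Cdh5. Neighbours that differ in both were not tested. Genes most like each one over the 8 arrays were found by Pearson's r, as a description only, since the arrays fall into 4 groups and share their libraries. For Emcn they were Lrba (0.997), Ttc30b (0.997) and Rarb (0.996), and for Esm1 Nrn1 (0.989), Pgrmc1 (0.986) and Zdhhc3 (0.985). For Eng they were Foxn3 (0.994), Als2cl (0.993) and Tle4 (0.992), and for Sox18 Srrm1 (0.999), Ube3b (0.998) and Acaa1b (0.997). For Vwf they were Fgd5 (0.989), Plekha6 (0.986) and Egr1 (0.986), and for Esam Tpm4 (0.988), Srsf6 (0.988) and the epithelial regulator gene Nkx2-1 (0.981). For Cdh5 the highest were lower, with Rnaseh2c (0.972), Dcaf17 (0.947) and Cisd1 (0.944). For Tmem100 they were Lmo7 (0.983), Fmo1 (0.979) and 1700013F07Rik (0.973), and for Vegfa H2-K2 (0.991), H2-Q7 (0.988) and Arpc1b (0.987).

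Other pan-endothelial markers were read from the same fits, 21 of 26 listed genes being measured. Counts of this and the following lists stand beside the shares of all genes. Pecam1, Cldn5, Icam2, Tek, Kdr, Hey1, Vcam1 and Bmp6 are each in more than 1 list, so the counts are not independent of each other. For silica these were 11.5% higher and 8.21% lower in WT, and 16.8% and 15.9% in RagKO. For the interaction they were 11% higher and 12.3% lower. After silica 9 rose and 0 fell in WT, with a median of 0.45, led by Mmrn2 (1.21, adjusted p = 0.00049), the guidance receptor gene Robo4 (0.81) and the vesicle diaphragm gene Plvap (0.83). In RagKO 3 rose and 7 fell, with Plvap at 1.27, Robo4 at 0.90 and the phosphatase gene Ptprb at -0.65. Leaving out 1 array moved these counts: between 2 and 10 rose in WT, the fewest without WT silica replicate 2 (4 and 3 without WT saline replicate 1 and 2), and between 1 and 8 fell in RagKO, the fewest without RagKO silica replicate 1 (3 without RagKO saline replicate 2 and 4 without RagKO saline replicate 1). The interaction passed for 6 of the 21, 5 lower and 1 higher in RagKO, among them Myct1 (-1.05), Ptprb (-0.95) and Ecscr (-1.06), and without WT silica replicate 1 or RagKO silica replicate 2 it was lower for 9, and without WT saline replicate 1 for 3. After saline 8 were higher and 7 lower in RagKO, with Ecscr at 2.15, the transcription factor Erg at 1.84, Plvap at -1.72 and the tight junction gene Cldn5 at -1.13. Over all genes 37% were higher and 29.2% lower after saline, so the shares of the 21 were close to these. After silica 13 were lower and 4 higher (median -0.57, against 0.07 over all genes), led by the sphingosine receptor gene S1pr1 (-2.02), which lymphocytes also express. Over all genes 26.4% were lower and 33.7% higher after silica. The platelet-endothelial adhesion gene Pecam1 was higher in RagKO after saline (0.89, adjusted p = 3.39e-05) and silica (0.64, adjusted p = 0.000437).

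Genes of vessel types moved in part with these. Of 12 measured large vessel and lymphatic genes 9 rose and 1 fell in WT after silica, with a median of 1.06, and 8 of the 12 had a lower silica effect in RagKO. The noradrenaline transporter gene Slc6a2 rose by 2.02 in WT (adjusted p = 9.26e-05), the lymphatic matrix gene Mmrn1 by 1.52, the venous regulator gene Nr2f2 by 1.07 and the lymphatic chemokine gene Ccl21a by 1.05. In RagKO 0 rose and 1, Lyve1, fell (-0.87). Of 13 capillary genes 5 rose and 2 fell in WT, and 2 rose and 6 fell in RagKO. There the carbonic anhydrase gene Car4 rose by 2.52 and Lpl by 0.71, and Kitl and Cd36 fell by 1.37 and 0.96. Macrophage and monocyte markers also rose on these RagKO arrays (9 of 14, with 0 falling), and their part in the capillary gene values was not tested. The capillary counts in WT were 2 and 0 without either WT saline array, 3 and 0 without WT silica replicate 2, and 2 and 2 with quantile normalization.

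Signalling partners were examined by pathway. Of 7 measured VEGF ligands and receptors 3 rose in WT (Vegfc 1.12, Nrp2 0.58, Flt1 0.54), and in RagKO Nrp2 (1.10) and Flt1 (0.59) rose and Vegfd fell (-0.58). The main VEGF receptor gene Kdr did not pass in either silica comparison (-0.14 and 0.16) and was lower in RagKO after saline (-0.74, adjusted p = 0.000318). In WT the count of VEGF genes was 1 without WT saline replicate 1 and 0 without replicate 2. Of 11 angiopoietin and Notch genes 8 rose in WT (4 without either WT saline array and 5 without WT silica replicate 2), among them the Notch ligands Dll1 (1.05) and Jag1 (1.39), the receptor Notch4 (0.84) and the target Hey1 (1.09). In RagKO 5 rose and 2 fell, and Angpt2, the antagonist ligand of the TIE2 receptor, fell by 0.79 after being 3.09 higher than in WT after saline; 3 rose without RagKO saline replicate 2 or either RagKO silica array. Of 15 genes of the ALK1, BMP and endoglin pathway 6 rose in WT, with the inhibitor Smad7 at 0.82 and the target Id1 at 0.50. That count was 0 without WT saline replicate 2 or WT silica replicate 2 1 without WT saline replicate 1 and 3 with quantile normalization. In RagKO 3 rose and 2 fell, and Acvrl1, which encodes ALK1, did not pass in either genotype (0.16 and 0.26).

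Junction, haemostasis and hypoxia genes completed the picture. Of 15 junction and adhesion genes 7 rose and 0 fell in WT, led by the junction adaptor gene Cgnl1 (1.64, adjusted p = 0.000104), Icam1 (0.70) and Vcam1 (0.71), and 2 rose and 2 fell in RagKO. That WT count was 3 without WT saline replicate 2. After saline 10 of the 15 were higher and 1 lower in RagKO, against 37% and 29.2% of all genes. Of 11 haemostasis and vessel tone genes 6 rose in WT, among them the plasminogen activator gene Plat (0.61), thrombomodulin gene Thbd (0.69) and endothelin gene Edn1 (0.84). The WT count was 1, 0 and 1 without WT saline replicate 1, saline replicate 2 and silica replicate 2, and 3 without silica replicate 1 or with quantile normalization. In RagKO 4 rose and 1 fell, with the urokinase gene Plau at 1.61 and the protein C receptor gene Procr at 1.39, and 2 rose without RagKO saline replicate 1 or either silica array. Of 18 hypoxia response genes, a program known to include Vegfa, 2 rose in WT (Epas1 0.67 and Ndrg1 0.51). In RagKO 5 rose and 5 fell, with a median of -0.07. The smallest p-values there belonged to falls, of Vldlr (-0.96) and Pdk1 (-0.73). Next came rises of the glucose handling genes Hk2 (0.87) and Slc2a1 (0.71). Without WT saline replicate 1 or RagKO saline replicate 1 the hypoxia counts were 0 in WT and 3 and 2 in RagKO, respectively.

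Markers of other cells moved on the same arrays. Of 19 lung epithelium markers 13 rose and 1 fell after silica in WT (median 0.92) and 1 rose and 7 fell in RagKO (median -0.33), with a lower silica effect in RagKO for 16 (Krt18 -1.72, Slc34a2 -1.91, Cdh1 -1.73). Their mean log2 ratio was 1.95 and 2.03 in WT saline, 2.64 and 2.9 in WT silica, 2.95 and 3.01 in RagKO saline, and 2.81 and 2.65 in RagKO silica. Of 16 fibroblast and mural cell markers 11 rose and 0 fell in WT, and 5 rose and 8 fell in RagKO. The WT count was 6, 5 and 6 without WT saline replicate 1, saline replicate 2 and silica replicate 1, and the RagKO rises were 2 without RagKO saline replicate 1 or silica replicate 1. Their means were 0.17 and 0.15, 0.91 and 0.69, 1.11 and 1.11, and 1.16 and 0.97 in the same order. The mean over the 21 pan-endothelial markers was 2.58 and 2.65, 2.91 and 3.14, 2.72 and 2.77, and 2.60 and 2.77. After saline 14 of the epithelium markers were higher and 2 lower in RagKO than in WT. For the fibroblast and mural markers these counts were 10 and 5, against 37% and 29.2% of all genes. Structural markers of all 3 kinds thus had higher means in WT silica than in WT saline, and their part in the values of the 9 genes was not tested.

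Blood cell markers moved differently. Of 6 platelet markers 0 rose and 1 fell in WT after silica (Ppbp, -0.52), while Vwf and Esam rose there. In RagKO 5 of the 6 were higher after saline (37% of all genes), where Vwf was lower and Esam did not pass. Of 10 pan-leukocyte markers 0 rose and 3 fell in WT, and 5 rose and 1 fell in RagKO. Between the genotypes, 6 were lower and 1 higher in RagKO after saline (median -0.50), and 2 were lower and 3 higher after silica. Over all genes 29.2% were lower and 37% higher after saline, and 26.4% and 33.7% after silica. Of 15 immediate early genes 12 rose in WT and 14 in RagKO, and the part of that response, of platelets and of the share of leukocytes in the results was not tested.

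**Figure D5:**
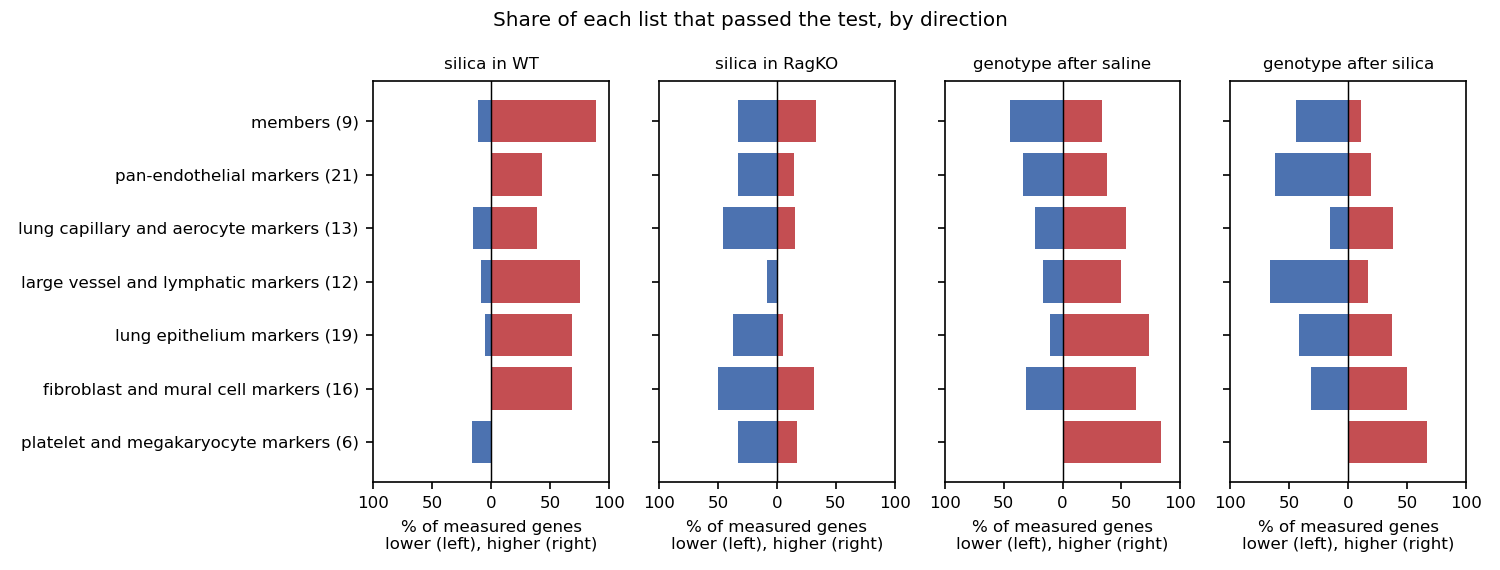
Percent of the measured genes of each list (number in brackets) that were higher (red, right) or lower (blue, left) past the adjusted threshold in 4 comparisons. In WT after silica the 9 genes (8 higher, 1 lower), the epithelium markers (13 and 1 of 19) and the fibroblast and mural markers (11 and 0 of 16) all point right, whereas the 6 platelet markers do not (0 and 1).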

How the data were processed

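Leukocyte RNA (Cy5) and universal mouse reference RNA (Cy3) were hybridised to 8 Agilent 2-colour arrays in 1 dye orientation, per the labels. The deposited table holds 1 log10 ratio per probe and array for 16251 probes; the sources used here do not give the authors' background correction, dye normalization, centring or probe filter, and no signal for judging background is used here. The log10 base was inferred: the largest ratio would be 737-fold as log10 and 7.3-fold as log2. Values were multiplied by 3.3219 to give log2. Column medians lay within 0.0677 of each other as log2 values, and the ratios were used without rescaling.

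Probes complete across the 8 arrays numbered 14716. The platform table gave 1 symbol for 14488 of all probes, several for 10 and none for 1753, and 14460 matched the GRCm38.p6 gene table by Entrez identifier. Averaging the probes that share a symbol gave 11597 genes. limma 3.58.1 in R 4.3.3 (lmFit, eBayes) fitted 4 group means with 4 residual degrees of freedom and Benjamini-Hochberg adjustment at 0.05. The median SE was 0.126 in 2-group comparisons and 0.178 in the interaction. The number of arrays limits the precision. The fit was tested on simulated data with a far smaller share of changed genes than these data. It recovered 83 to 89% of changes of 1 on the log2 scale in the 2-group comparisons, and 56% in the interaction. For changes of 2 these were 98 to 99% and 95%. False calls were 3.2 to 5.1% of calls. The 9 genes, 19 marker lists and tests were chosen with earlier results of these data known. Named genes were all 9, up to 4 of a list by smallest p, a short fixed set (Pecam1, Kdr, Acvrl1 and others), and the 3 closest by Pearson's r. Alternatives were median centring, quantile normalization, 1 probe per gene, probes with missing values kept, only the arrays compared, a replicate block, robust eBayes and leaving out each array. Each probe of Tmem100 and Vegfa alone, and the list counts under these settings, were added after seeing the data.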

Additional observations from a re-analysis of the deposited data

Results flagged for a closer look

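For 6 of the 9 genes the silica effect differed between the genotypes by the interaction term of the fit (limma, Benjamini-Hochberg adjusted over all genes), which passed for 23.3% of all genes. The RagKO effect minus the WT effect on the log2 scale was -1.77 for Emcn, -0.76 for Vwf, -0.66 for Esam, -1.11 for Tmem100, -2.78 for Esm1 and 0.82 for Vegfa. Emcn and Esm1 rose in WT and fell in RagKO, as did the probe mean of Tmem100, whose cDNA probe passed in neither (0.23 and -0.16; interaction -0.38, adjusted p = 0.114). Vwf, Esam and Vegfa had positive differences in both genotypes, of 1.11 and 0.35, 0.94 and 0.28, and 0.68 and 1.5. With 2 arrays per group, no array could be tested as an outlier within its group.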

How the results depend on the processing

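Over all genes, leaving out 1 array at a time gave between 861 and 2389 genes changed by silica in WT (2283 with all arrays), 2380 to 3842 in RagKO (3795), 6417 to 7790 for genotype after saline (7680), 5736 to 7106 after silica (6970) and 1647 to 2485 for the interaction (2697). Of the 9 genes these fits called 5 to 9, 4 to 7, 6 to 7, 5 to 7 and 3 to 6. A group left with 1 array is assumed to vary like the others, and these fits have fewer residual degrees of freedom. Under the 7 other settings these counts over all genes and over the 9 stayed within 1.5 times their values (some marker list counts moved more, such as ALK1 pathway genes in WT from 6 to 3 and epithelium markers lower in RagKO from 7 to 4 with quantile normalization), and quantile normalization called 8, 7, 6, 6 and 5 of the 9. Of 306 gene values under those settings 295 kept direction and side of the threshold, 4 lost and 4 gained a call and 3 turned sign, of which 0 had been called. Those were Esam after saline (0.23 with quantile normalization) and, with the first probe alone, Tmem100 (0.35) and Vegfa (-0.18) after silica. Single probes, added after seeing the data, gave Tmem100 genotype differences of -0.47 after saline (cDNA probe) and 0.35 after silica (RefSeq probe), and Vegfa -0.18. Quantile normalization ended the calls of Tmem100 in WT (0.44, adjusted p = 0.0684) and of Vwf in the interaction (-0.57, 0.0976), and with the first probe alone Vegfa missed it in the interaction (0.60, 0.0649). Leaving out 1 array turned 7 of 360 values, of which 0 had been called; the ranges were -0.15 to 0.08 for Esam and -0.63 to 0.19 for Cdh5 after saline, -0.53 to 0.29 for Cdh5 with silica in RagKO, -0.02 to 0.39 for Vegfa after silica and -0.15 to 0.38 for the Sox18 interaction. Same-numbered arrays of different groups did not deviate together (r between -0.075 and 0.113 over 6 pairs of groups), so the numbers were not taken as pairs. With a replicate block the counts were 2244, 3795, 7668, 6954 and 2669, and Cdh5 after silica passed (0.51, adjusted p = 0.0416). Array signals over background are not used here, so weakly expressed genes could not be set apart.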

Other observations

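Heart muscle and red cell transcripts were also measured in these leukocyte preparations. Of 7 cardiac muscle markers 5 fell and 0 rose after silica in RagKO, led by the atrial light chain gene Myl7 (-2.28, adjusted p = 5.23e-06) and the cardiac actin gene Actc1 (-1.11), while in WT 2 rose (Myh7 1.97, Tnni3 0.49) and Myl4 fell (-1.40). Their silica effect was lower in RagKO for 6 of the 7 and higher for 1. Of 5 erythroid markers 2 fell in WT and 3 in RagKO after silica, and Hba-a1 was lower in RagKO after saline by -1.78 and after silica by -1.56. Of 8 neutrophil markers 1 rose (Ltf, 1.37) and 3 fell after silica in WT, and 2 rose and 4 fell in RagKO. S100a8 fell in both (-1.03 and -1.46). Ltf fell in RagKO (-0.55), while Csf3r fell in WT (-0.42) and rose in RagKO (0.63).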
